A study of Rattus norvegicus with 22 samples.

Results

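The mRNA of fibronectin (FN, rat Fn1), tenascin C (TNC, rat Tnc) and syndecan-4 (SDC-4, rat Sdc4) was followed in the calcaneal tendon (CT) of rats whose gastrocnemius muscle (GA), not the tendon, had been injured. They are the 3 cell-matrix adhesion genes of a panel of 22 target genes and were picked by name. The study asked how muscle injury alters the tendon over time. Male Wistar rats, 4 months of age at the start, were either not exposed to muscle injury (C group, 5 animals) or had the GA belly frozen with a metal bar cooled in liquid nitrogen (cryolesion), and the CT was taken 3 days (3D, 5 animals), 14 days (14D, 6 animals) or 28 days (28D, 6 animals) later. The lesion is limited to the surface of the muscle belly, and no sham-operated group or later control time is described, so injury, anesthesia, skin incision and time cannot be told apart in a difference from C. Each animal gave 1 sample, and the animal is the replicate.

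Fibronectin is a large glycoprotein that fibroblasts secrete and pull into fibrils through integrins, and it serves as an early scaffold on which collagen is laid down. Tenascin C is a matricellular glycoprotein that is scarce in most resting adult tissues, is known in tendon for its response to mechanical load and to injury, and modulates the attachment of cells to fibronectin. Syndecan-4 is a transmembrane heparan sulfate proteoglycan that binds fibronectin and acts with integrins in focal adhesions. The 3 genes thus encode a matrix ligand, a modulator of its adhesion and a cell surface co-receptor.

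The mRNA was measured by qRT-PCR with TaqMan probes in whole tendon. The cycle threshold (Ct) counts the rounds of amplification needed before the probe signal crosses a fixed line, and 1 cycle earlier is close to a doubling of mRNA. ΔCt is the Ct of a gene minus that of RPLP0, a ribosomal protein used as the reference gene in the study. Log2 expression is the negative of ΔCt, shifted so that C averages 0 in each gene. The tendon markers SCX, MKX and TNMD had a Ct in all 22 animals. The panel as used here holds no defining marker of muscle fibres, fat cells, blood vessels or leukocytes. In whole tissue, fewer cells of a type and less mRNA per cell cannot be told apart. Of 66 values of the 3 genes 63 were used. FN in replicate 4 of C and replicate 3 of 3D matched the average of its group mates to within 1e-06 and was left out, and SDC-4 in replicate 6 of 28D was blank. One limma model over the 22 genes held the 4 group means, p-values were adjusted over all 132 tests by the Benjamini-Hochberg method, and 0.05 was the limit for the adjusted p. Each comparison was also run as an exact permutation test (two-sided, over animals), whose p is not adjusted.

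RPLP0 moves every ΔCt and had a mean Ct (± SD) of 27.3 ± 1.91 in C, 28.2 ± 2.37 in 3D, 27.1 ± 1.15 in 14D and 28.8 ± 1.28 in 28D, over 5, 5, 6 and 6 animals. Its mean Ct was 1.72 cycles higher at 28 than at 14 days (exact permutation p = 0.0303), and the differences between the other groups ran from -1.07 to 1.57 cycles (exact permutation p from 0.134 to 0.848). Replicate 2 of 3D was late in every one of the 4 genes, with a Ct of 32.3 for RPLP0, 33.0 for FN, 35.6 for TNC and 34.6 for SDC-4. That TNC well was the only well of the 3 genes above a Ct of 35. The part of the RPLP0 differences in the results below was not tested beyond the reference-free comparisons, the Ct alone and the other references given further on.

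**Figure D1:**
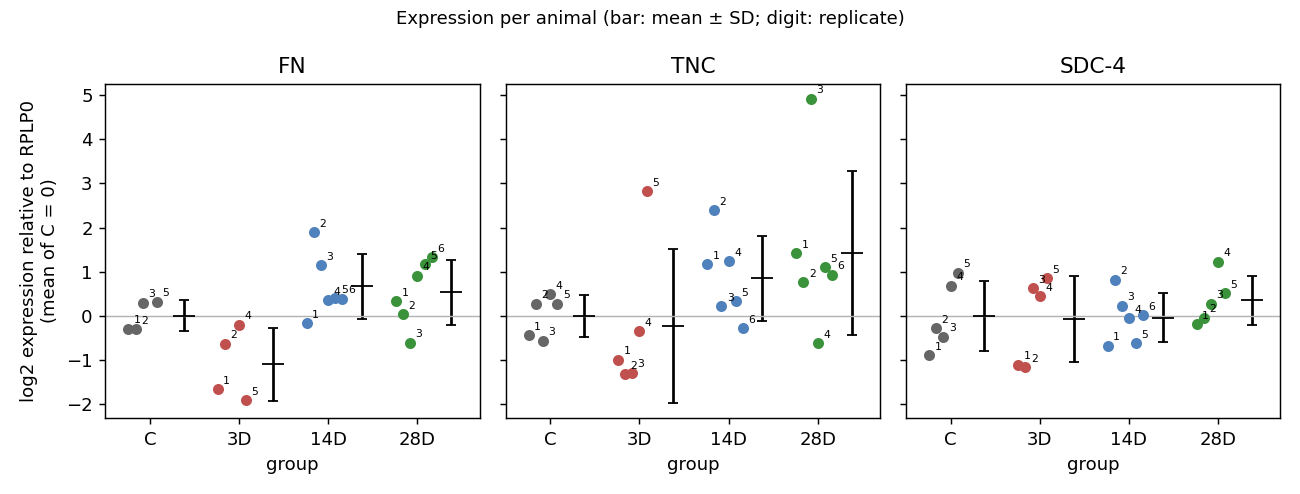
Log2 expression relative to RPLP0 (y axis, mean of C at 0) of FN, TNC and SDC-4 in each animal of C, 3D, 14D and 28D (x axis), with the replicate number beside each point and the mean ± SD as a bar. The 4 FN points of 3D, from -1.92 to -0.20, lie below all 6 points of 14D, and TNC has a single high point in 3D at 2.82 and in 28D at 4.92.

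FN, the fibril-forming ligand, was lowest 3 days after the injury and rose to 14 and 28 days. It passed in 2 of the 6 pairs of groups, both against 3D, and TNC and SDC-4 passed in 0 of 6 each with limma. At an unadjusted p under 0.05 the number was 3 for FN, 1 for TNC and 0 for SDC-4, and with the exact test it was 2, 0 and 0. Over the 3 genes 2 of 18 comparisons passed (11.1%), where 10.6% of the 132 of the whole panel did. At an unadjusted p under 0.05 the share was 22.2% against 18.9% over the panel, and with the exact test 11.1% against 22%, so the 3 genes as a set lay near or below the panel.

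In C, FN had a log2 expression of -0.29, -0.31, 0.29 and 0.32 in replicates 1, 2, 3 and 5. In 3D it was -1.67, -0.64, -0.20 and -1.92 in replicates 1, 2, 4 and 5. Replicates 1, 2 and 5 of 3D thus lay below all of C, and replicate 4 lay among them. The mean of 3D was 2.16-fold below that of C (a log2 difference of -1.11 with an SE of 0.52, 4 against 4 animals), which did not pass (limma adjusted p = 0.237, exact permutation p = 0.0857), in a pair where 4.55% of the panel passed. With every value of the deposited ΔCt table, including the FN value of replicate 3 of 3D that was set to the mean Ct of its group mates, the difference was -1.62 and passed (adjusted p = 0.0463).

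In 14D, FN ran from -0.17 over a median of 0.39 to 1.89, and all 6 animals lay above the 4 of 3D. FN rose 3.42-fold from 3D to 14D (a log2 difference of 1.77 with an SE of 0.48, 6 against 4 animals, limma adjusted p = 0.0226). The exact permutation p was 0.00476, the smallest that 6 animals against 4 allow. In this pair 27.3% of the panel passed and 13.6% had groups that did not overlap. The median log2 difference of the 22 genes was 0.71. When each Ct was set against the average Ct of the panel the rise of FN was 0.99 and did not pass (adjusted p = 0.181). Here and below that average is over the genes with a Ct used in the animal, so the genes in it differ between animals. The rise relative to RPLP0 did not pass without replicate 1 of 3D (1.59, adjusted p = 0.10) or replicate 5 of 3D (1.50, adjusted p = 0.0651).

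In 28D, FN ran from -0.61 over a median of 0.62 to 1.33. Of the 6 animals 5 lay above all of 3D, and replicate 3, the lowest, stood beside replicate 2 of 3D. FN rose 3.10-fold from 3D to 28D (a log2 difference of 1.63 with an SE of 0.48, 6 against 4 animals, limma adjusted p = 0.0291, exact permutation p = 0.0190), in a pair where 31.8% of the panel passed and the median log2 difference of the 22 genes was 1.07. When each Ct was set against the average Ct of the panel the difference was 0.56 (adjusted p = 0.457). It also did not pass without replicate 1 of 3D (1.45, adjusted p = 0.105), replicate 5 of 3D (1.36, adjusted p = 0.0864), replicate 5 of 28D (1.51, adjusted p = 0.0685) or replicate 6 of 28D (1.47, adjusted p = 0.0665). Both rises from 3D missed the limit from the Ct alone (3.36 to 14D and 1.50 to 28D) and with the most frequent RPLP0 Ct of each animal (1.44 and 1.30). They also missed it where the exact p-values were the ones adjusted (adjusted p = 0.0786 and 0.143). On linear values, as differences of relative expression and not of log2, they were 1.26 and 1.07 and missed it too. The most frequent RPLP0 Ct differed from the one used for FN only in replicate 5 of 3D. There it put the average of the group mates, 28.5, in place of the animal's own 27.1.

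Against C, FN was 1.59 times as high in 14D (log2 difference 0.67, 95% interval -0.32 to 1.65, 6 against 4 animals, limma adjusted p = 0.438, exact permutation p = 0.0905). In 28D it was 1.44 times as high (log2 difference 0.53, 95% interval -0.46 to 1.51, 6 against 4 animals, adjusted p = 0.555, exact permutation p = 0.219). In the deposited fold change table FN of replicates 2 and 3 of 14D, the highest of their group by ΔCt, is 1.26 and 1.20 where the ΔCt gives 3.71 and 2.21, and from that table the difference of 14D from C was 0.26. Between 28D and 14D the log2 difference was -0.14 (95% interval -1.02 to 0.74, 6 against 6 animals, adjusted p = 0.902, exact permutation p = 0.745). None of these 3 pairs had a gene of the panel that passed with limma (0% of 22 genes). At an unadjusted p under 0.05 there was 1 gene in 14D against C, 0 in 28D against C and 2 in 28D against 14D, and with the exact test 2, 6 and 3. The order of the FN means was 3D, C, 28D, 14D, and no neighbours in this order differed beyond the threshold.

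**Figure D2:**
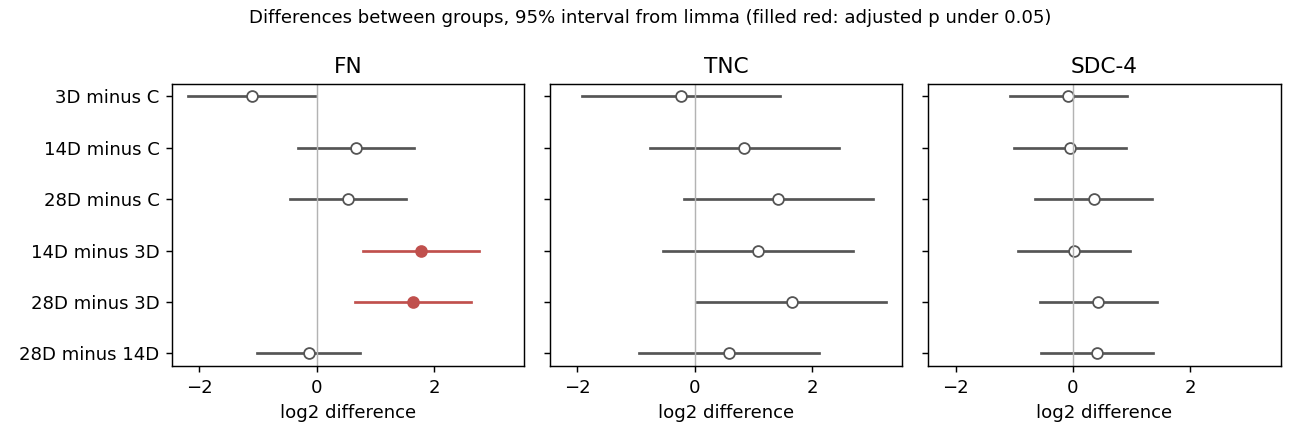
Log2 difference between groups (x axis) of FN, TNC and SDC-4 for the 6 pairs of groups (y axis), with the 95% interval from limma as a line and filled red points for an adjusted p under 0.05. The intervals of 14D and 28D against 3D lie above 0 for FN, and those of TNC are the widest.

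TNC, the modulator of adhesion, had the highest mean in 28D, yet its spread within groups was up to 1.85 on the log2 scale and no pair passed. In C, TNC was -0.45, 0.27, -0.57, 0.48 and 0.27 in replicates 1 to 5. In 3D it was -1.0, -1.32, -1.30 and -0.36 in replicates 1 to 4 and 2.82 in replicate 5. Replicates 1, 2 and 3 of 3D were thus lower than any animal of C while replicate 5 was higher than any.

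In 14D, TNC ran from -0.28 over a median of 0.75 to 2.39, and in 28D from -0.62 over a median of 1.02 to 4.92. All animals of 14D lay above replicates 1 to 4 of 3D. Of the 6 animals of 28D 5 exceeded the highest of C, and replicate 4 was under the lowest.

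From 3D the mean of TNC was 2.11 times as high in 14D (a log2 difference of 1.08 with an SE of 0.78, 6 against 5 animals, limma adjusted p = 0.441, exact permutation p = 0.236). In 28D it was 3.14 times that of 3D (a log2 difference of 1.65 with an SE of 0.78, 6 against 5 animals, adjusted p = 0.237, exact permutation p = 0.156). Neither passed. Without replicate 5 of 3D the 28D difference was 2.42 and passed (adjusted p = 0.0324), and the 14D difference was 1.84. Without replicate 3 of 28D the 28D difference was 0.95, and without replicate 2 of 14D the 14D difference was 0.77.

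Against C, the log2 difference of TNC was -0.23 in 3D (95% interval -1.92 to 1.45, adjusted p = 0.933, exact permutation p = 0.889, 5 against 5 animals). It was 0.84 in 14D (95% interval -0.77 to 2.46, adjusted p = 0.556, exact permutation p = 0.0996, 6 against 5 animals) and 1.42 in 28D (95% interval -0.19 to 3.03, adjusted p = 0.282, exact permutation p = 0.0866, 6 against 5 animals). Between 28D and 14D it was 0.58 (95% interval -0.96 to 2.11, adjusted p = 0.70, exact permutation p = 0.584, 6 against 6 animals). The order of the TNC means was 3D, C, 14D, 28D, with no neighbours that differed beyond the threshold. The difference of 3D from C was -1.0 without replicate 5 of 3D and 0.04 without replicate 2 of 3D, and that of 28D from C was 0.72 without replicate 3 of 28D.

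**Figure D3:**
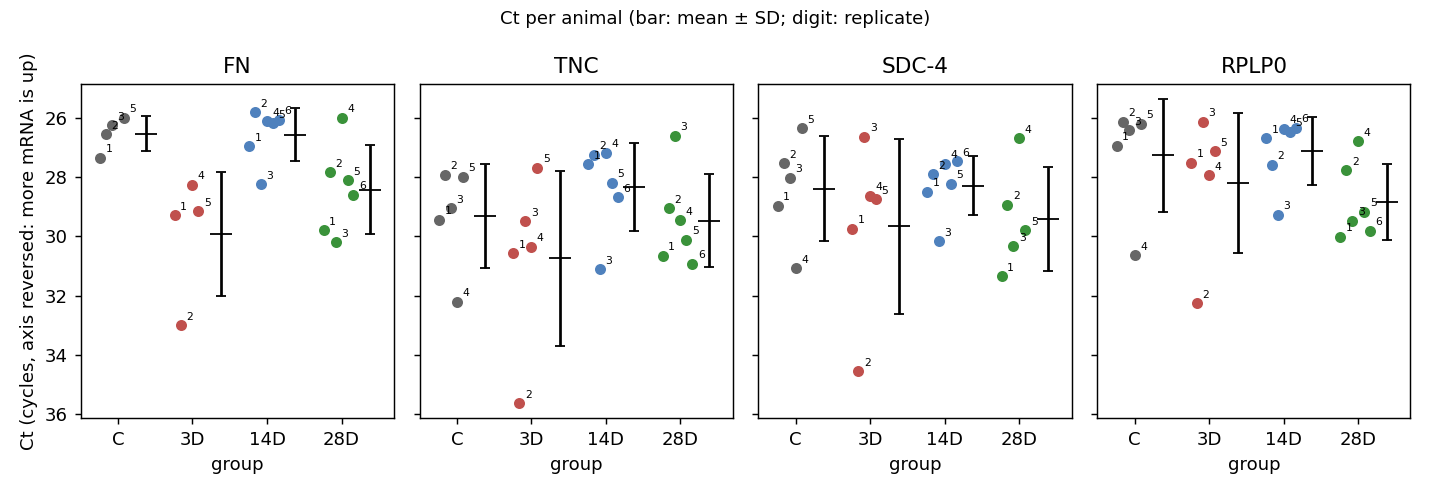
Ct in cycles (y axis, reversed so that more mRNA is up) of FN, TNC, SDC-4 and the reference gene RPLP0 in each animal by group (x axis), with the replicate number beside each point and the mean ± SD as a bar. Replicate 3 of 28D has the latest FN Ct of its group, 30.2, and the earliest TNC Ct, 26.6.

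In the 2 animals with the highest TNC of 3D and 28D, TNC had the earliest Ct of the group while FN and SDC-4 did not, and other genes of the panel shared the place of TNC. In replicate 3 of 28D the TNC Ct of 26.6 was the earliest of the group, where the other 5 animals ran from 29.1 to 30.9, while its FN Ct of 30.2 was the latest of 6 and its SDC-4 Ct of 30.3 the fourth of 5. Over the panel this animal was the earliest of its group in 4 of 22 genes, which were ADAMTS-4, ERG1, TIMP-1 and TNC, and the latest in 6. Its TIMP-1 Ct was 28.3, with the other 5 animals at 31.8 to 35.8.

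In replicate 5 of 3D the TNC Ct of 27.7 was the earliest of 5, with the others at 29.5 to 35.6, while FN at 29.2 was the second of 4 and SDC-4 at 28.7 the third of 5. This animal was the earliest of its group in 7 of 20 genes measured, which were ADAMTS-4, COL1A1, ERG1, MMP-2, TGF-β1, TIMP-1 and TNC, and its TIMP-1 Ct was 26.1 with the other 4 at 30.5 to 36.6. The deposited ΔCt of TNC and SDC-4 in this animal used 28.5 for RPLP0, which is the average of the 4 other tendons at 3 days, and that of FN with its own RPLP0 Ct of 27.1. With its own RPLP0 Ct the log2 expression of this animal was 1.48 in place of 2.82 for TNC and -0.49 in place of 0.85 for SDC-4. With the own RPLP0 Ct of every animal, an alternative added after the values were seen, the TNC difference of 28D from 3D was 1.92 (limma adjusted p = 0.0710) and FN still passed against 3D in 14D (adjusted p = 0.0162) and 28D (adjusted p = 0.0247).

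With these 2 animals left out together, TNC rose from 3D by 1.84 to 14D (limma adjusted p = 0.0163) and by 1.72 to 28D (adjusted p = 0.0278). This alternative, and that on the animals of the fold change table, were also chosen after the values were seen. In the deposited fold change table TNC is blank for replicate 5 of 3D, and the TNC value of replicate 3 of 28D that follows from the ΔCt, 30.3 times the mean of C, is in no cell. There the columns of replicates 1, 2, 3 and 4 of 14D hold the values that follow from the ΔCt of replicates 3, 4, 5 and 6, and columns 5 and 6 are blank. The columns of replicates 3 and 4 of 28D hold the values of replicates 4 and 5, and column 5 holds that of replicate 6 without subtraction of the control mean. With TNC taken from the ΔCt of the animals that the table holds, the difference of 28D from 3D was 1.72 (adjusted p = 0.0186) and that of 14D from 3D was 1.37 (adjusted p = 0.0656).

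SDC-4, the cell surface co-receptor, had group means that lay close together, and no pair passed. In C it was -0.90, -0.28, -0.47, 0.68 and 0.97 in replicates 1 to 5. In 3D it was -1.11, -1.18, 0.62, 0.44 and 0.85. In both groups some animals stood below and others above the mean of C, and the groups overlapped.

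In 14D, SDC-4 ran from -0.68 over a median of -0.03 to 0.82. In 28D it was -0.19, -0.04, 0.27, 1.22 and 0.51 in replicates 1 to 5, of which replicate 4 lay above every other animal of the 4 groups.

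Against C, the log2 difference of SDC-4 was -0.08 in 3D (95% interval -1.07 to 0.92, limma adjusted p = 0.961, exact permutation p = 0.897, 5 against 5 animals). It was -0.05 in 14D (95% interval -1.01 to 0.90, adjusted p = 0.988, exact permutation p = 0.903, 6 against 5 animals) and 0.35 in 28D (95% interval -0.65 to 1.35, adjusted p = 0.709, exact permutation p = 0.429, 5 against 5 animals). From 3D it was 0.03 in 14D (95% interval -0.93 to 0.98, adjusted p = 0.995, exact permutation p = 0.948, 6 against 5 animals) and 0.43 in 28D (95% interval -0.57 to 1.43, adjusted p = 0.652, exact permutation p = 0.413, 5 against 5 animals). Between 28D and 14D it was 0.40 (95% interval -0.55 to 1.36, adjusted p = 0.652, exact permutation p = 0.266, 5 against 6 animals). Over the 6 pairs the intervals thus leave room for differences of up to 1.43, a 2.69-fold change. The order of the SDC-4 means was 3D, 14D, C, 28D, with no neighbours that differed beyond the threshold. Leaving out replicate 2 of 3D turned the difference of 3D from C to 0.20.

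To set the genes against each other with no reference gene, the Ct of 1 gene was subtracted from that of another within each animal. A higher Ct of SDC-4 minus Ct of FN means more FN relative to SDC-4, whatever the RPLP0 Ct. It is free of the amount of cDNA only where both assays are equally efficient. Only the change between groups is read, since 2 assays can differ in efficiency. What such a difference adds where the amount of cDNA varies was not tested. All 231 pairs of panel genes were fitted with limma in the 4 groups, and p-values were adjusted over 1386 tests. Of these pairs 1.3% passed in 3D against C, 5.63% in 14D against 3D, 1.3% in 28D against 3D, 2.6% in 28D against 14D and 0% in the other two comparisons. Of the 18 comparisons of the 3 genes 0 passed, 1 had an unadjusted p under 0.05 (5.56%, against 18.3% over all gene pairs) and 2 an exact permutation p under 0.05 (11.1% against 17.0%).

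**Figure D4:**
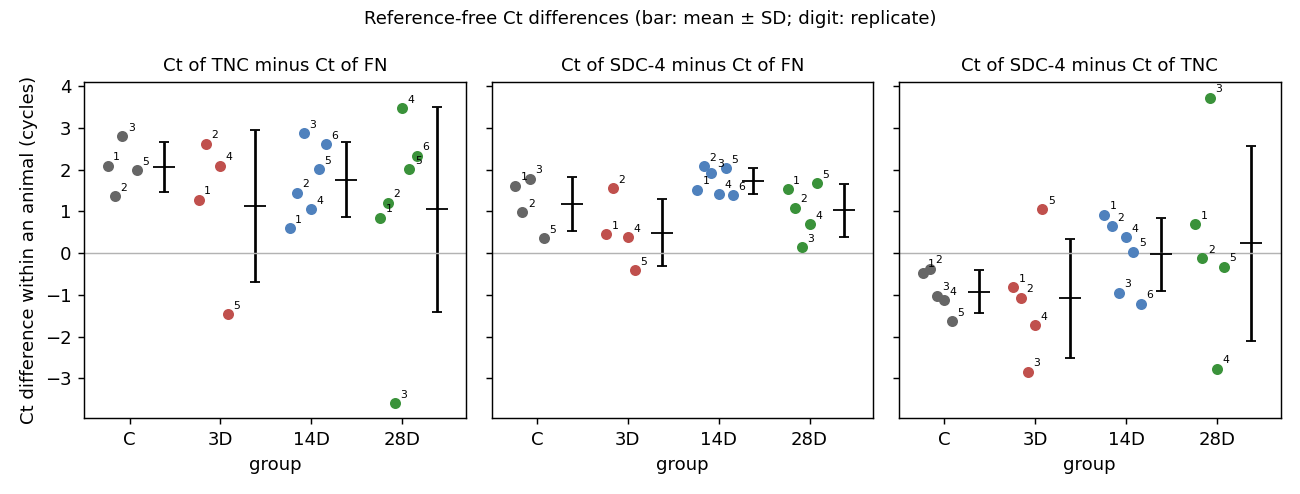
Difference of 2 Ct values within an animal in cycles (y axis) for TNC minus FN, SDC-4 minus FN and SDC-4 minus TNC, by group (x axis), with the replicate number beside each point and the mean ± SD as a bar. The 6 animals of 14D lie between 1.39 and 2.09 for SDC-4 minus FN, and replicate 3 of 28D is at -3.59 for TNC minus FN.

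FN relative to SDC-4 had its lowest mean in 3D and its highest in 14D, and 0 of the 6 pairs of groups passed. Against C the difference was -0.69 cycles in 3D, 0.55 in 14D and -0.16 in 28D (limma adjusted p = 0.499, 0.573 and 0.881). The Ct of SDC-4 minus that of FN was 1.62, 0.99, 1.78 and 0.36 in replicates 1, 2, 3 and 5 of C and 0.46, 1.55, 0.38 and -0.42 in replicates 1, 2, 4 and 5 of 3D. It ran from 1.39 to 2.09 in 14D, and was 1.54, 1.09, 0.14, 0.70 and 1.68 in replicates 1 to 5 of 28D. The 14D animals were the most alike, with an SD of 0.32 against 0.65 in C, 0.81 in 3D and 0.63 in 28D.

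From 3D to 14D, FN relative to SDC-4 differed by 1.24 cycles (SE 0.44, 95% interval 0.32 to 2.16, 6 against 4 animals, exact permutation p = 0.0190), which did not pass (limma adjusted p = 0.157). The rise of FN is thus not shown to differ from the change of SDC-4. From 3D to 28D the difference was 0.54 (95% interval -0.42 to 1.49, 5 against 4 animals, adjusted p = 0.588, exact permutation p = 0.310), and from 14D to 28D it was -0.70 (95% interval -1.57 to 0.16, 5 against 6 animals, adjusted p = 0.396, exact permutation p = 0.0368), with 3 of 5 animals of 28D below all of 14D.

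For FN relative to TNC no pair of groups passed, and 2 animals set most of the spread. The Ct of TNC minus that of FN averaged 2.06 ± 0.59 cycles (mean ± SD) in the 4 animals of C, 1.13 ± 1.82 in the 4 of 3D, 1.76 ± 0.89 in the 6 of 14D and 1.05 ± 2.45 in the 6 of 28D. In replicate 5 of 3D it was -1.47 and in replicate 3 of 28D -3.59, the only animals with TNC ahead of FN. From 3D the difference was 0.63 in 14D (95% interval -1.46 to 2.72, 6 against 4 animals, limma adjusted p = 0.777, exact permutation p = 0.519) and -0.09 in 28D (95% interval -2.18 to 2.01, 6 against 4 animals, adjusted p = 0.976, exact permutation p = 0.943).

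TNC relative to SDC-4 stood at -0.93 ± 0.51 cycles (mean ± SD) in the 5 animals of C, -1.08 ± 1.42 in the 5 of 3D, -0.03 ± 0.87 in the 6 of 14D and 0.24 ± 2.34 in the 5 of 28D, as the Ct of SDC-4 minus that of TNC. In 14D 4 of 6 animals and in 28D 4 of 5 lay above all of C. The differences from C were 0.89 in 14D (95% interval -0.80 to 2.59, 6 against 5 animals, limma adjusted p = 0.604, exact permutation p = 0.0823) and 1.17 in 28D (95% interval -0.61 to 2.94, 5 against 5 animals, adjusted p = 0.524, exact permutation p = 0.349). The 28D difference was 0.29 without replicate 3 of 28D.

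The SD of such a Ct difference over the animals measures how alike 2 genes behave, with a low SD for genes that move together. This is a description over 19 to 22 animals that share the cDNA of each animal and differ in group. It was 0.71 cycles for FN and SDC-4, rank 28 of 225 gene pairs, 1.44 for TNC and SDC-4, rank 161, and 1.60 for FN and TNC, rank 175. Both SDs with TNC include replicate 5 of 3D and replicate 3 of 28D. There the Ct of TNC minus that of FN was -1.47 and -3.59 cycles, where all the other animals ran from 0.60 to 3.47 and all 20 animals averaged 1.48. How alike TNC is to FN and SDC-4 without these 2 animals was not computed. For comparison, the Ct itself had an SD of 1.86 cycles for FN (n = 20), 2.03 for TNC (n = 22) and 1.90 for SDC-4 (n = 21).

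The genes most like FN were DCN, a small proteoglycan that binds collagen fibrils (SD 0.56 cycles, 19 animals), MMP-2, a gelatinase (0.61, 20 animals), and BGN, biglycan (0.67, 20 animals). For SDC-4 they were MMP-2 (0.44, 19 animals, the lowest SD of all 225 pairs), SMAD-2, a carrier of TGF-β signals (0.58, 21 animals), and TNMD, a membrane protein of tenocytes (0.63, 21 animals). For TNC they were ERG1, a transcription factor gene of the panel (0.98, 22 animals), ADAMTS-4, a protease of proteoglycans (1.05, 21 animals), and SCX, the tendon transcription factor scleraxis (1.21, 22 animals). ERG1 and ADAMTS-4, like TNC, had the earliest Ct of the group in replicate 5 of 3D and replicate 3 of 28D. Both animals are part of these SDs. FN was twelfth of 21 genes for TNC, and TNC was nineteenth of 21 for FN.

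Around the 3 genes, 2 of the 5 matrix components COL1A1, COL3A1, BGN, DCN and FMOD rose from 3D to 14D, COL1A1 and DCN. The same 2 rose from 3D to 28D. Over the panel 27.3% of the genes passed in 14D against 3D and 31.8% in 28D against 3D. No list was tested against these shares. The collagen chain COL1A1 rose by 3.39 on the log2 scale to 14D (limma adjusted p = 0.00053) and by 2.0 to 28D (adjusted p = 0.0262). DCN rose by 1.91 to 14D (adjusted p = 0.0403) and by 2.32 to 28D (adjusted p = 0.0177). In 3D against C, where 4.55% of the panel passed, only COL1A1 of these 5 matrix components passed, and it fell. Of the matrix remodeling genes MMP-2, TIMP-1, TIMP-2 and ADAMTS-4, 2 of 4 rose in both pairs, MMP-2 and TIMP-2. Of the TGF-β axis, which is known to induce both fibronectin and tenascin C, 0 of the 3 genes TGF-β1, SMAD-2 and SMAD-3 passed in any pair with limma. For TGF-β1 the log2 difference of 28D from 3D was 1.35 (limma adjusted p = 0.0772, exact permutation p = 0.00476), and against C it was 0.57 at 28 days (adjusted p = 0.506, exact permutation p = 0.00952). The other differences of the 3 genes had an exact permutation p above 0.05. Of the tendon transcription factors SCX, MKX and ERG1, 1 of 3 rose in both pairs, MKX. These comparisons share the 3D animals with those of FN.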

How the data were processed

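qRT-PCR values of CT from 22 rats were used as deposited. The labels gave each animal its group and number. The deposited Ct, a score in cycles with no normalization, is per the methods from technical duplicates of 1 cDNA in a single run. In the deposited ΔCt table, a log2 scale with reversed sign, the authors subtracted the RPLP0 Ct. In the deposited fold change table the authors gave the ratio 2^−ΔΔCt against C. The software behind the Ct is not given in the sources used here.

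Blanks and values equal, within 1e-06, to the mean of the group's other animals in Ct or ΔCt were left out, 24 of 484 in the panel. In replicate 1 of C the deposited Ct of DCN was identical to that of BGN. It was also left out of all results from the Ct, while its ΔCt was kept. The RPLP0 Ct was Ct minus ΔCt. limma 3.58.1 in R 4.3.3 was fitted with 1 mean per group and no covariates, on ΔCt (132 tests) and on within-animal Ct differences of all gene pairs (1386 tests). The fit of single genes was tried on simulated data in which the genes varied independently, unlike genes that share the RPLP0 Ct and cDNA of an animal. The fit of gene pairs was not simulated. Intervals are 95% intervals of limma. Counting depth does not apply, and the 4 to 6 animals per group for each of the 3 genes limit the precision. Other genes of the panel can have fewer, as IL-6 with 2 animals in 3D. The genes most like a member were the 3 with the lowest SD of the Ct difference over at least 18 animals. All 22 symbols were found in the GRCr8 gene table. The members and gene lists were chosen with earlier results of these data known. The alternatives were other references, tables, scales, tests and adjustments, late wells as missing, a block for the replicate number, and 1 animal fewer at a time.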

Additional observations from a re-analysis of the deposited data

Results flagged for a closer look

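Of 24 sets of animals tested, the 3 genes and their 3 Ct differences in 4 groups, 3 held an animal far from the others of its group, and chance flags about 1 in 20. TNC in replicate 5 of 3D had a log2 expression of 2.82, where the other 4 animals ran from -1.32 to -0.36. That value rests on the average RPLP0 Ct of the other 4 animals, and with its own RPLP0 Ct it was 1.48. Whether it would then be flagged was not tested. TNC in replicate 3 of 28D had a log2 expression of 4.92, where the other 5 ran from -0.62 to 1.42. The Ct of TNC minus that of FN in the same animal was -3.59 cycles, where the other 5 ran from 0.85 to 3.47. The last 2 rest on 1 TNC well and are not independent. In the deposited fold change table TNC of replicate 5 of 3D is blank and the value of replicate 3 of 28D is absent. How these wells came about was not tested.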

How the results depend on the processing

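Values here are log2 differences, or cycles for Ct differences, with the first group minus the second. Only those on linear values are differences of relative expression, with no logarithm, and cannot be set beside the log2 differences by size. Of the 18 comparisons between groups, only the FN rises from 3D to 14D and to 28D passed, and both kept their direction under every alternative run. They did not pass from the Ct alone (3.36 to 14D and 1.50 to 28D), against the average Ct of the panel (0.99 and 0.56), with the most frequent RPLP0 Ct of each animal (1.44 and 1.30), on linear relative expression (1.26 and 1.07), and with the exact p-values adjusted (1.77 and 1.63, adjusted p = 0.0786 and 0.143). For FN the most frequent RPLP0 Ct changed only replicate 5 of 3D, from its own 27.1 to the average of its group mates, 28.5. The FN difference of 3D from C passed, at -1.62, in the deposited ΔCt with all values and in the fold change table. TNC against 3D passed with replicate 5 of 3D and replicate 3 of 28D both left out (1.84 to 14D and 1.72 to 28D) and, for 28D, in the animals of the fold change table (1.72). The cause of the other changes was not tested.

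The following differences, none of which passed, changed sign. From the Ct alone they were FN 14D and C at -0.029, SDC-4 14D and C at 0.10, FN, SDC-4 and TNC 28D and C at -1.89, -1.03 and -0.15, and SDC-4 and TNC 28D and 14D at -1.12 and -1.14. Against the average Ct of the panel they were SDC-4 and TNC 3D and C at 0.38 and 0.22, and SDC-4 at 0.019 for 14D and C, -0.36 for 14D and 3D and -0.21 for 28D and 3D. In the fold change table they were FN and TNC 28D and 14D at 0.27 and -0.066, where the table's FN of 14D replicates 2 and 3 does not follow from the ΔCt. With Ct above 35 as missing they were TNC 3D and C at 0.040 and the FN to TNC difference 28D and 3D at 0.41. On linear values they were TNC 3D and C at 0.79 and SDC-4 14D and 3D at -0.089. In the deposited Ct with all values they were FN to SDC-4 14D and C at -0.13 and FN to TNC 28D and 3D at 0.23. With both animals left out they were FN and TNC 28D and 14D at 0.087 and -0.12, FN to SDC-4 28D and C at 0.065, FN to TNC at -0.24 for 14D and 3D and 0.21 for 28D and 14D, and TNC to SDC-4 28D and 14D at -0.60.

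Leaving out 1 animal at a time, FN rose from 3D by 1.50 to 2.08 in 14D, past the threshold in 20 of 22 fits, and by 1.36 to 1.94 in 28D, past it in 18 of 22. Each of these FN differences rests on 6 against 4 animals, and leaving out any other animal cannot change it. The 22 fits thus overstate how often each rise was tried. Every fit that lost the call left out an animal compared. These were replicates 1 and 5 of 3D in both pairs, and also replicates 5 and 6 of 28D in the second. TNC 28D and 3D ran from 0.95 to 2.42 and passed in 1 fit, without replicate 5 of 3D. Ranges that crossed 0 were, for 3D and C, SDC-4 -0.31 to 0.20, TNC -1.0 to 0.040 and TNC to SDC-4 -0.69 to 0.29. For 14D and C it was SDC-4 -0.28 to 0.19, and for 28D and C FN to SDC-4 -0.43 to 0.065. For 14D and 3D they were SDC-4 -0.25 to 0.26 and FN to TNC -0.24 to 1.13, and for 28D and 3D FN to TNC -0.95 to 0.84. For 28D and 14D they were FN -0.31 to 0.11, TNC -0.12 to 0.99, FN to TNC -1.20 to 0.21 and TNC to SDC-4 -0.60 to 1.02. The RPLP0 Ct ran from -0.091 to 1.77 for 3D and C, -0.58 to 0.69 for 14D and C, 1.29 to 2.41 for 28D and C (past 0.05 by the exact permutation test without replicate 4 of C) and 1.48 to 2.15 for 28D and 14D (not past it in 8 fits).

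Replicate numbers recur across groups, but animals with the same number did not deviate together, with correlations over genes of -0.86 to 0.43 in 31 pairs, of which 9 were above 0.1, and 2 of 22 animals matched their own number best. With the replicate number as a block FN passed to 14D (1.75, adjusted p = 0.0447) and not to 28D (1.61, adjusted p = 0.0668), and no other call of the 36 changed. The fits of only the compared groups, ordinary least squares with Bonferroni adjustment and the own RPLP0 Ct of each animal changed no call and no sign. The 4 to 6 animals a group, not counting depth, limit what could be detected.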
